A study of Mus musculus with 20 samples.

Results

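The genes of sterol and fatty acid synthesis were followed through 12 RNA-seq libraries of mouse TH17 cells, the CD4 T cells that make interleukin-17. The set holds 32 listed genes, chosen by name with earlier results of these data known. All 32 were among the 24862 gene rows of every count table. They fall into a sterol arm of 18 genes, a fatty acid arm of 10 genes and a group of 4 regulators. Levels are given as CPM, a gene's count scaled to a common total of gene counts per library, so each is a share of that library. All cells came from C57BL/6 mice, and each group had 2 libraries. The labels do not say whether these came from separate animals or cultures, so the p-values measure only the spread between these libraries, which may be technical.

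TH17 cells had been sorted as GFP+ cells from the CNS and from the ileum, with 50000 cells per sample and a low-input SMART-Seq v4 kit. The labels do not say which reporter gave the GFP or how the CNS infiltration was induced. TH17(β) cells were grown from naive CD4 T cells of lymph node or spleen on plate-bound anti-CD3 with anti-CD28, blocking antibodies to IL-4 and IFN-γ, 2 ng/ml TGF-β1 and 20 ng/ml IL-6. Some of these cultures overexpressed c-Rel (Ad-c-Rel) and the others served as its control (Ad-control). Their library kit is not clearly given in the labels. TH17(23) cells were grown on the same antibodies with 20 ng/ml each of IL-6, IL-1β and IL-23, from miR-21-/- or control mice, and were prepared with a stranded total RNA kit. No promoter, clone, pooling or age is given for any group. A further 8 samples, profiled by ATAC-seq, were not analysed here.

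Cholesterol is built from acetyl-CoA through mevalonate, farnesyl diphosphate, squalene and lanosterol, each step having its own enzyme. Fatty acids are built from the same acetyl-CoA, then elongated and desaturated. Both arms are controlled by the SREBP transcription factors, encoded by Srebf1 and Srebf2, which stay in the endoplasmic reticulum under the retention protein INSIG1 while sterols are plentiful. When sterols are low they are cut free, enter the nucleus and bind sterol elements beside NF-Y boxes. Dividing T cells need new membrane, and in mouse work on TH17 cells intermediates of sterol synthesis have been described as ligands of RORγt, the lineage's transcription factor, while de novo fatty acid synthesis through ACC1 (gene Acaca) has been tied to TH17 differentiation.

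The reference promoter windows show where the sterol element stands in these genes. RefSeq windows of 300 bases (GRCm38.p6, ending 50 bases after a start site) were at hand for 25 of the 32 genes, 31 windows in all. The sterol element was searched as TCACNNCAC and the NF-Y box as CCAAT, both on either strand. The sterol element was found in 4 of the 31 windows (12.9%), against 3.77% of all 32851 windows, and the 4 windows all belonged to the sterol arm. The NF-Y box was found in 22 of the 31 windows (71.0%), against 37.4% of all windows. The 4 stretches that hold the element are shown because they are the letters an SREBP would read in genes described below. Capitals mark the sterol element and the nearest NF-Y box (ATTGG is CCAAT on the other strand), and in Msmo1 the 2 motifs overlap by 1 base.
Hmgcs1 (chr13:119690163-119690234, plus strand): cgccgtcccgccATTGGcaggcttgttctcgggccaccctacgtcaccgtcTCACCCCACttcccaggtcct
Hsd17b7 (chr1:169969262-169969334, minus strand): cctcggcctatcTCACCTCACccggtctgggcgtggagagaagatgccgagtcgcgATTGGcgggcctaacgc
Msmo1 (chr8:64733650-64733686, minus strand): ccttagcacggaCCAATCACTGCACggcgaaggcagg
Dhcr7 (chr7:143823260-143823286, plus strand): gaaaagggcTCACTTCACcttatagct
The element began 137 bases before the start site in Hmgcs1, 117 in Hsd17b7, 92 in Msmo1 and 130 in Dhcr7. The Dhcr7 stretch lies before only 1 of its annotated starts, inside the span of the gene, and its window held no NF-Y box. A match describes these letters only, and no binding was measured.

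Gene counts summed to between 15421743 and 36711252 per library, and to at least 32766097 in each miR-21 library. The added gene Rel checked the Ad-c-Rel label, at 57.5 and 61.9 CPM in Ad-c-Rel libraries against 10.8 and 7.02 CPM in Ad-control libraries. Mir21a, the deleted gene, had 0 counts in both miR-21-/- libraries, against 25 and 20 counts in the controls. The 11 T cell markers present in the tables summed to 5275 and 5426 CPM in CNS and 6198 and 6408 CPM in ileum, and none was at 0 in any of the 12 libraries. The sorted libraries also held transcripts of other cells. Myeloid and microglia markers summed to 28090 and 28814 CPM in CNS, against 2776 and 3012 CPM in ileum. B and plasma cell markers summed to 6.81 and 17.5 CPM in CNS, against 3561 and 3598 CPM in ileum. Of the oligodendrocyte and astrocyte list, Mog, Olig1 and Olig2 were at 0 in all 12 libraries, but others were present. The list summed to 212 and 229 CPM in CNS, against 152 and 167 CPM in ileum. Slc1a3, an astrocyte glutamate transporter, had 23.6 and 19.9 CPM in CNS, against 0.185 and 0 CPM in ileum, and Mag, a myelin protein, had 8.86 and 20.02 CPM in CNS, against 0.492 and 0 CPM in ileum. Replicate 2 of each tissue detected fewer genes, 11545 in CNS and 10771 in ileum, against 14224 and 13927 in replicate 1.

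The sterol arm was lowest in the sorted CNS libraries and highest in the TH17(β) cultures. Summed over its 18 genes it stood at 436 ± 58.6 CPM in CNS and 896 ± 11.6 CPM in ileum. The sum was 2379 ± 14.2 CPM with Ad-c-Rel and 2611 ± 47.3 CPM with Ad-control, then 1812 ± 95.5 CPM in miR-21-/- cells and 1533 ± 13.1 CPM in their controls (mean ± SD, n = 2 each). No pair of groups had overlapping libraries in this sum. The fatty acid arm had another order, with its highest sums in the TH17(23) cultures, at 2892 ± 96.5 CPM in miR-21-/- cells and 3240 ± 283 CPM in controls. It stood at 1448 ± 5.32 CPM with Ad-c-Rel and 1502 ± 150 CPM with Ad-control, and at 348 ± 65.9 CPM in CNS and 377 ± 8.67 CPM in ileum. Within each matched pair but the miR-21 pair, the fatty acid sums overlapped between the groups. The regulators summed to 278 ± 49.5 CPM in CNS, 735 ± 40.4 CPM in ileum, 594 ± 9.57 CPM with Ad-c-Rel, 741 ± 94.5 CPM with Ad-control, 1057 ± 92.5 CPM in miR-21-/- cells and 976 ± 91.0 CPM in controls.

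**Figure D1:**
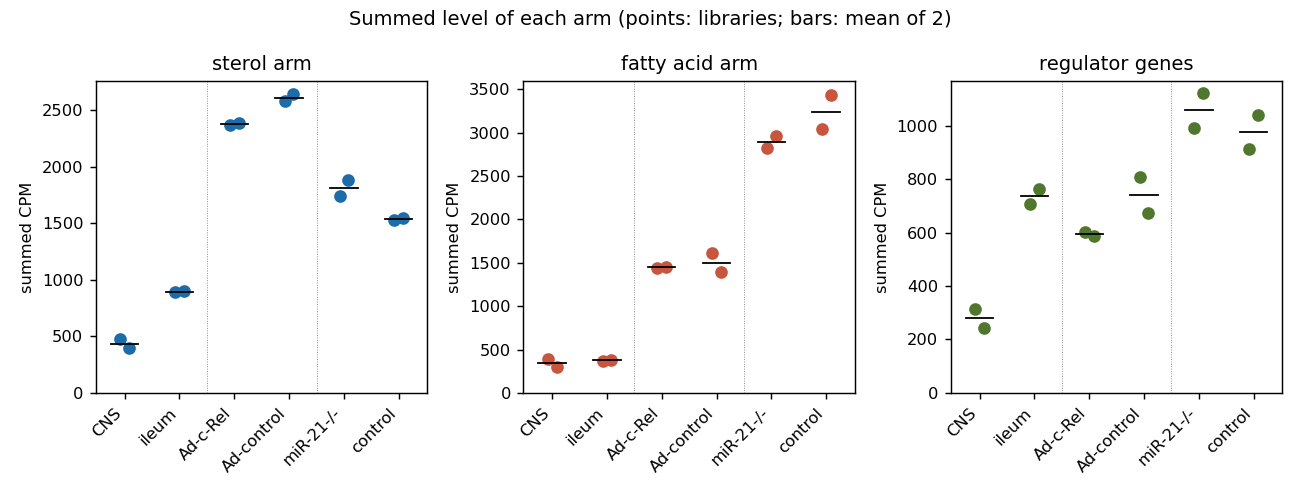
Summed level of each arm (CPM, vertical axis from 0) in the 6 groups, 1 point per library with a bar at the mean of 2. The 2 CNS points of the sterol arm, 395 and 477 CPM, sit below the 2 ileum points, 888 and 904 CPM, and the lowest of the 8 culture points is at 1524 CPM.

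In 16 of the 32 genes all 8 cultured libraries stood above all 4 sorted ones, a pattern shown by 2633 of the 18863 genes with any count. The 16 were 11 sterol genes, 4 fatty acid genes (Acly, Elovl6, Scd2, Fads2) and Stard4. Fdps, farnesyl diphosphate synthase, was typical. It had 38.6 and 29.7 CPM in CNS, 47.2 and 66.1 CPM in ileum, 287 and 264 CPM with Ad-c-Rel, 334 and 324 CPM with Ad-control, 222 and 244 CPM in miR-21-/- cells and 198 and 215 CPM in their controls. Nsdhl, a sterol dehydrogenase, broke the pattern with its highest mean in ileum, at 60.7 and 63.3 CPM. Ebp, a sterol isomerase, had its lowest levels in the TH17(23) cultures, at 25.3 to 33.3 CPM, against 65.1 to 98.1 CPM in the other 8 libraries. Cell source, culture and library kit differ together between the pairs of groups and cannot be told apart. The count tables differed too. Reads set aside as not uniquely aligned were 0% of the miR-21 tables, against 2.2% to 3.5% of the other tables, and the effect on levels was not tested. Because the samples are bulk, fewer cells of a type and less RNA per cell cannot be told apart in any of them.

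Along the pathway, most remaining sterol genes shared this order with their own ranges. Mvk and Pmvk phosphorylate mevalonate. Pmvk had 16.2 and 22.5 CPM in CNS and 22.0 and 10.3 CPM in ileum, and 36.3 to 49.0 CPM in culture. Mvk had 6.84 and 3.17 CPM in CNS and 25.04 and 9.57 CPM in ileum, so one ileum library stood above all 8 cultured ones, at 6.51 to 17.1 CPM. Mvd, which makes isopentenyl diphosphate, had 27.5 and 11.1 CPM in CNS and 14.3 and 12.7 CPM in ileum, and 68.9 to 99.2 CPM in culture. Idi1, the isomerase of that product, had 28.4 and 37.0 CPM in CNS and 72.7 and 40.5 CPM in ileum, and 90.4 to 136 CPM in culture. Mvd overlapped between the tissues and Idi1 did not, and in both genes the sorted libraries lay under the cultured range. Fdft1, which makes squalene, had 25.2 and 40.6 CPM in CNS and 42.8 and 112 CPM in ileum, a 2.61-fold gap between the ileum libraries, and 134 to 212 CPM in culture. Lss, which closes the ring of lanosterol, was at 106 to 160 CPM in culture. Tm7sf2, a sterol reductase, never passed 12.1 CPM and had 0 counts in CNS replicate 2. Sc5d, which acts late in the pathway, had 51.6 and 27.0 CPM in CNS and 72.2 and 66.6 CPM in ileum, 174.7 to 193 CPM in the TH17(β) cultures and 42.9 to 70.4 CPM in the TH17(23) cultures. Its TH17(23) range thus overlapped the sorted libraries while its TH17(β) range did not.

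The make-up of the fatty acid arm also differed between sorted and cultured cells. Scd2, one of the stearoyl-CoA desaturases that put the first double bond into saturated fatty acids, held 46.7% to 66.1% of the arm's counts in the 8 cultured libraries, against 3.26% to 9.38% in the 4 sorted ones. Acly, which cleaves citrate to acetyl-CoA, held 58.8% to 65.5% of them in the sorted libraries, against 11.97% to 39.2% in culture. Scd2 was at 33.3 and 28.3 CPM in CNS and 16.1 and 12.5 CPM in ileum, and at 679 to 1982 CPM in culture. Its close copy Scd1 was at 0.535 and 0 CPM in CNS and 23.2 and 6.69 CPM in ileum. Reads of near-identical stretches of Scd1 and Scd2, or of Acat2 and its copy Acat3, could have been split or dropped in counting, so the levels of these genes are uncertain. Fads2, the delta-6 desaturase, was at 0 to 0.492 CPM in the sorted libraries and at 12.3 to 44.3 CPM in culture. Me1, the cytosolic malic enzyme, stayed between 0 and 2.37 CPM everywhere.

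**Figure D2:**
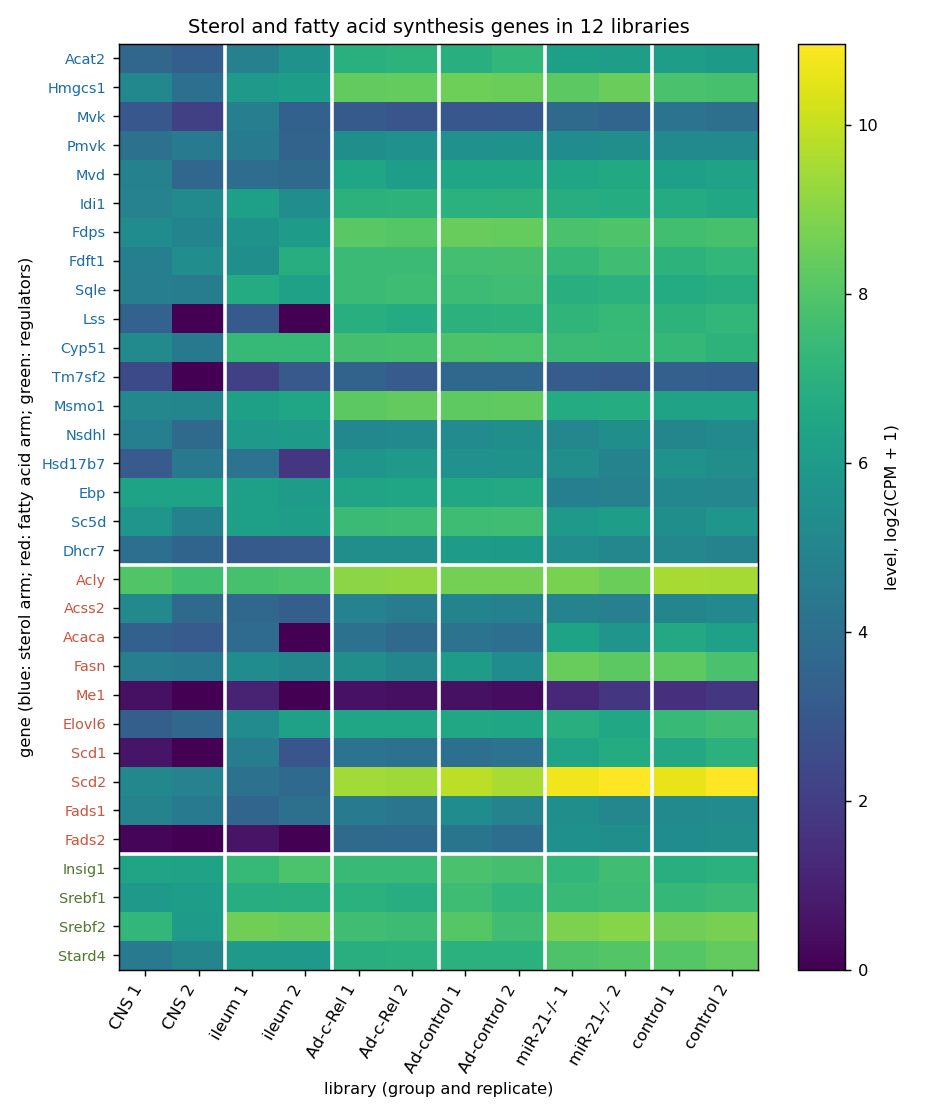
Level of each of the 32 genes, as log2(CPM + 1), in each of the 12 libraries, with the sterol arm at the top, the fatty acid arm in the middle and the regulators at the bottom. The 4 sorted libraries on the left are darker in most rows, Scd2 is among the brightest rows of the 8 cultured libraries, and Lss is dark in replicate 2 of both tissues.

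In the sorted cells, 7 of the 30 genes tested were lower in CNS than in ileum and 0 were higher. Each gene was tested with the quasi-likelihood F test of edgeR on the 4 libraries of its pair, with p-values adjusted over all genes tested and a threshold of 0.05. Over all 12038 genes tested, 5.66% were lower in CNS and 4% were higher. That split depended on the scaling, at 482 higher and 681 lower here, 643 and 512 by total counts alone, and 920 and 384 when scaled to the T cell list. The 7 genes were the sterol enzymes Sqle, Msmo1 and Cyp51, the elongase Elovl6 and the regulators Insig1, Srebf1 and Srebf2. Me1 and Fads2 had too few counts to be tested. At an unadjusted p under 0.05 none of the 30 was higher either, and DESeq2 also called none higher.

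Cyp51, lanosterol demethylase (chr5:4080674-4104697), showed the smallest p of the set. It had 36.5 and 20.7 CPM in CNS, against 161 and 159 CPM in ileum. Both CNS libraries lay far under both ileum libraries, with a log2 fold change of −2.69 (SE 0.334, edgeR adjusted p = 0.00999). Sqle, squalene epoxidase (chr15:59315092-59331193), had 24.8 and 24.2 CPM in CNS, against 107 and 77.2 CPM in ileum. Again the groups were apart, by a log2 fold change of −2.11 (SE 0.310, edgeR adjusted p = 0.0159). Msmo1, the C4 methylsterol oxidase that acts after Cyp51, had 33.05 and 31.4 CPM in CNS, against 73.3 and 88.1 CPM in ileum (log2 fold change −1.52, SE 0.273, edgeR adjusted p = 0.0288). Cyp51 and Sqle kept their call when any 1 library was left out, and Msmo1 lost it without CNS replicate 1, CNS replicate 2 or ileum replicate 2 (adjusted p up to 0.0830).

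Other sterol genes stood lower in CNS without passing the test. Hmgcs1, which makes HMG-CoA, had 33.7 and 15.0 CPM in CNS, against 57.3 and 69.9 CPM in ileum (log2 fold change −1.59, SE 0.461, edgeR adjusted p = 0.104). Nsdhl had 25.3 and 12.9 CPM in CNS, against 60.7 and 63.3 CPM in ileum (−1.90, SE 0.425, edgeR adjusted p = 0.0531). Acat2, which makes acetoacetyl-CoA, was at −2.07 (SE 0.522, edgeR adjusted p = 0.0724). In all, 12 of the 18 sterol genes were below 0 on the log2 scale. The arm's median was −1.22, against 0.08 over all genes tested. The 6 above 0 were Pmvk, Mvd, Lss, Hsd17b7, Ebp and Dhcr7, between 0.05 and 0.52. Without ileum replicate 2 the number above 0 was 2 of 18, and without either CNS replicate it was 4. Ebp, for one, had 81.7 and 79.8 CPM in CNS, against 70.8 and 65.1 CPM in ileum (log2 fold change 0.05, SE 0.238). Lss, lanosterol synthase, had 0 counts in replicate 2 of both tissues, which allows up to 0.156 CPM in CNS and 0.176 CPM in ileum by counting error alone, beside 9.87 CPM in CNS replicate 1 and 7.69 CPM in ileum replicate 1.

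All 4 regulators were below their ileum levels, and 3 passed. Insig1, whose protein retains SREBPs and whose gene is itself an SREBP target (chr5:28071412-28078662), had 82.6 and 79.6 CPM in CNS, against 159 and 233 CPM in ileum (log2 fold change −1.47, SE 0.237, edgeR adjusted p = 0.0214). Srebf2, the factor most tied to sterol genes (chr15:82147269-82205379), had 152 and 66.1 CPM in CNS, against 376 and 353 CPM in ileum (−1.95, SE 0.395, edgeR adjusted p = 0.0410). Srebf1, the factor most tied to fatty acid genes (chr11:60199084-60224186), had 57.5 and 67.3 CPM in CNS, against 111 and 119 CPM in ileum (−1.08, SE 0.229, edgeR adjusted p = 0.0466). None of the 3 overlapped between the tissues. Over all genes tested, 21.6% had both CNS libraries below both ileum libraries in CPM, and 38.9% had both above. Stard4, a cholesterol carrier that is also a SREBP target, had 21.3 and 30.4 CPM in CNS, against 59.6 CPM in both ileum libraries (edgeR adjusted p = 0.0650). The Srebf1 call ended when any 1 of the 4 libraries was left out (adjusted p 0.0711 to 0.121), and the Insig1 call ended without ileum replicate 2 (adjusted p = 0.0565). By total counts alone 1 of the 4 regulators passed (Srebf2 adjusted p = 0.0562, Srebf1 0.0804), and by the size factors DESeq2 uses (RLE) 2 did (Srebf1 0.0503).

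The fatty acid arm had a median of −0.01 over the 8 genes tested, 0.20 when scaled by total counts alone, −0.82 without ileum replicate 2 and −0.41 without CNS replicate 1. Elovl6, which elongates palmitate to stearate (chr3:129532386-129638495), was the gene of this arm that edgeR called lower. It had 9.09 and 11.3 CPM in CNS, against 37.7 and 75.2 CPM in ileum (log2 fold change −2.66, SE 0.481, edgeR adjusted p = 0.0296). Its call ended without CNS replicate 1 or ileum replicate 2 (adjusted p up to 0.0762). Acly was level, at 253 and 197 CPM in CNS and 218 and 233 CPM in ileum (−0.20, SE 0.179). Fasn, fatty acid synthase, had 24.96 and 22.0 CPM in CNS, against 38.6 and 31.3 CPM in ileum (−0.78, SE 0.393, edgeR adjusted p = 0.312). Scd2 (0.91, SE 0.484), Acss2 (1.01, SE 0.712) and Fads1 (0.75, SE 0.536) stood above 0 and did not pass. Scd1, whose levels are given above, had the largest fitted fold of the arm, which rests on 9 and 0 counts in CNS (−6.01, SE 2.005, edgeR adjusted p = 0.145, DESeq2 adjusted p = 0.00128). For Acaca, acetyl-CoA carboxylase, ileum replicate 2 had 0 counts, beside 13.1 CPM in ileum replicate 1 and 9.57 and 7.75 CPM in CNS.

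Markers of other cells moved with tissue in the same 4 libraries. Of 18 myeloid and microglia markers 17 were higher in CNS (median log2 fold change 2.83), led by Tmem119, Ctss and Lyz2, and on the list of B and plasma cells 5 of 9 fell, led by Jchain, Cd79a and Blk. Of 6 oligodendrocyte and astrocyte markers tested, 5 were above 0 (median 6.61), Slc1a3 was called higher and Gja1, which other cells also express, was called lower. Of the 11 T cell markers, 10 were below 0 and 3 were called lower, with a median of −0.50. The mitotic list, which marks dividing cells, had 0 of 12 called in either direction by edgeR, with 0 higher and 1 lower at an unadjusted p under 0.05 and 0 by DESeq2. When libraries were scaled to the T cell list, Cyp51 (log2 fold change −2.24) and Sqle (−1.67) remained lower, Elovl6 did so barely (−2.24, adjusted p = 0.04998), and Insig1 (−1.04, adjusted p = 0.0643), Msmo1 (−1.09, 0.0773), Srebf2 (−1.495, 0.0771) and Srebf1 (−0.65, 0.155) no longer passed. All 4 regulators were still below 0, with a median of −1.01 against −1.43 before. That scaling moved the median of all genes to 0.52 and that of the fatty acid arm to 0.45. The part of other cells in the lower sterol values was not tested further.

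Neighbouring lipid pathways did not follow one direction. Of 8 genes that process or retain SREBPs and of 15 genes of fatty acid oxidation, 0 were called by edgeR in either direction. Unadjusted, 3 of these 23 were higher and 2 lower at p under 0.05, and DESeq2 called 1 higher and 1 lower. Of 8 genes of sterol export and LXR response, the 1 called by edgeR was Srebf1, which is also in the set and was lower. This list had a median of 0.87, with 5 of 8 genes above 0. Unadjusted, 3 of the 8 were higher and 1 lower at p under 0.05, and DESeq2 called 2 higher and 1 lower. Of 21 other lipid synthesis genes tested, Dgat1, which makes triglyceride, was lower at 396 ± 18.6 CPM in CNS and 2804 ± 54.0 CPM in ileum (log2 fold change −3.02, SE 0.106), as were Hacd3 (−2.18) and Elovl5 (−2.01). Soat1, which esterifies cholesterol, was higher at 145 ± 12.1 CPM in CNS and 37.5 ± 3.08 CPM in ileum (1.75, SE 0.236, edgeR adjusted p = 0.0126).

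**Figure D3:**
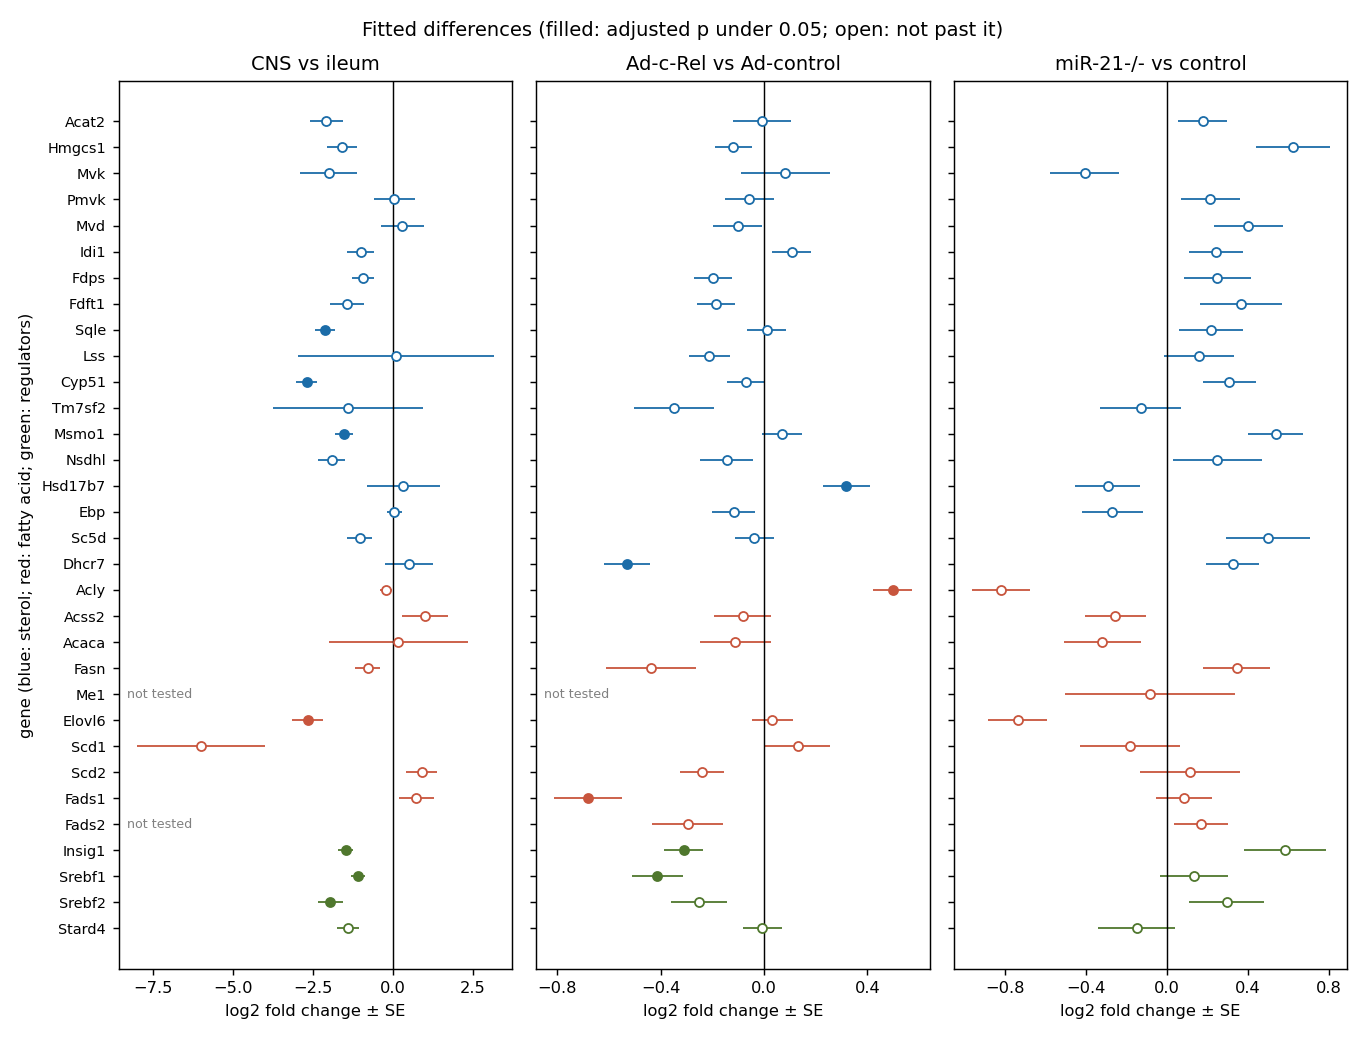
Fitted log2 fold change with its SE for each of the 32 genes in the 3 comparisons, on a separate horizontal scale for each, with filled points for an adjusted p under 0.05. In CNS against ileum the filled points all lie left of 0 (−2.69 to −1.08), the 6 filled points of Ad-c-Rel lie on both sides of 0, and no point is filled for miR-21-/-.

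With added c-Rel, 6 of the 31 genes tested in TH17(β) cells changed, all by less than 1 on the log2 scale. Acly and Hsd17b7 were higher, and Dhcr7, Fads1, Srebf1 and Insig1 were lower. The background was 8.16% of 11711 genes higher and 6.12% lower, so the 2 higher genes of 31 were near it. By total counts alone the split over all genes turned round, to 669 higher and 1027 lower, against 956 and 717 here, with 1 gene of the set higher and 8 lower. The libraries of this pair were the closest of the study, with a median ratio of 1.06 between replicates over the 32 genes in both groups, against 1.30 in CNS and 1.28 in ileum. The differences below are therefore small in size but measured against a narrow spread.

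Dhcr7, which makes cholesterol from 7-dehydrocholesterol (chr7:143823167-143848410), had 42.0 and 41.6 CPM with Ad-c-Rel, against 64.0 and 61.9 CPM with Ad-control. The groups were well apart, with a log2 fold change of −0.53 (SE 0.0885, edgeR adjusted p = 0.000774). Hsd17b7, which reduces the C3 keto group of sterol intermediates, went the other way, at 53.5 and 57.2 CPM with Ad-c-Rel and 45.7 and 46.7 CPM with Ad-control (0.32, SE 0.0917, edgeR adjusted p = 0.0307). That call was lost in DESeq2 (adjusted p = 0.0783) and in 3 of the 4 fits that each left out 1 library (up to 0.279, all but the fit without Ad-c-Rel replicate 1). The other 16 sterol genes did not pass. Their log2 fold changes lay between −0.35 and 0.11 and the arm's median was −0.09, against −0.01 over all genes tested. Hmgcs1 had 318 and 325 CPM with Ad-c-Rel, against 368 and 360 CPM with Ad-control (−0.12, SE 0.0719). Cyp51, so low in CNS, had 212 and 216 CPM with Ad-c-Rel, against 240 and 228 CPM with Ad-control (−0.07, SE 0.0727).

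Acly (chr11:100476352-100528000) had the smallest p of the set in this pair. It had 527 and 569 CPM with Ad-c-Rel, against 407 and 401 CPM with Ad-control (log2 fold change 0.50, SE 0.0750, edgeR adjusted p = 0.000294). Fads1, the delta-5 desaturase (chr19:10182877-10196874), had 21.9 and 18.7 CPM with Ad-c-Rel, against 39.0 and 29.2 CPM with Ad-control (−0.68, SE 0.132, edgeR adjusted p = 0.00273). Neither gene overlapped between the groups. Acly and Dhcr7 kept their calls with any 1 library left out, and Fads1 lost it narrowly without Ad-control replicate 1 (adjusted p = 0.0508). Scd2 had 692 and 679 CPM with Ad-c-Rel, against 925 and 763 CPM with Ad-control, and did not pass (−0.24, SE 0.0842, edgeR adjusted p = 0.0695). Fasn had 42.2 and 31.4 CPM with Ad-c-Rel, against 65.3 and 39.4 CPM with Ad-control, the largest ratio between replicates of the set in each group (1.34 with Ad-c-Rel and 1.66 with Ad-control). Elovl6 was level, at 87.4 and 88.4 CPM with Ad-c-Rel and 90.5 and 88.6 CPM with Ad-control.

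Among the regulators, Insig1 had 164 and 173 CPM with Ad-c-Rel, against 226 and 210.0 CPM with Ad-control (log2 fold change −0.31, SE 0.0755, edgeR adjusted p = 0.0117). Srebf1 had 128 and 112 CPM with Ad-c-Rel, against 187 and 147 CPM with Ad-control (−0.41, SE 0.0988, edgeR adjusted p = 0.0108). Both were lower in each Ad-c-Rel library than in each Ad-control library. Leaving out replicate 1 of Ad-control took Insig1 to an adjusted p of 0.0570 and Srebf1 to 0.124 in edgeR. Insig1 was also lost without replicate 1 of Ad-c-Rel (0.129), and Srebf1 without replicate 2 of Ad-c-Rel (0.0564). Srebf2 had 190 and 180.4 CPM with Ad-c-Rel, against 268 and 193 CPM with Ad-control (−0.25, edgeR adjusted p = 0.141). Stard4 was level, at 119 and 122 CPM with Ad-c-Rel and 127 and 125 CPM with Ad-control.

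In CPM, 20 of the 31 genes had both Ad-c-Rel libraries below both Ad-control libraries and 3 had both above, against 37.3% below and 21.4% above over all genes tested. The mitotic list fell in the same libraries, with 12 of 12 genes lower (median −1.01), led by Ccna2, Ccnb2 and Cdc20, and sums of 466 and 478 CPM with Ad-c-Rel against 995 and 1057 CPM with Ad-control. Its part in the values above was not tested. In the other pathways, Abca1, a sterol exporter, was higher with Ad-c-Rel, at 25.7 and 23.7 CPM against 15.4 and 12.8 CPM with Ad-control (0.88, SE 0.122, edgeR adjusted p = 0.000139). Of 22 other lipid synthesis genes 5 were higher (Acsl4, Hacd3, Dgat1, Hsd17b12 and Dgat2, from 0.28 to 0.47) and 0 lower. Of 15 fatty acid oxidation genes Hadh, Cpt1a and Acads were lower (−0.46 to −0.30) and Slc25a20 was higher (0.27). None of 8 SREBP processing genes was called by edgeR or DESeq2, and 1 was higher and 1 lower before adjustment.

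**Figure D4:**
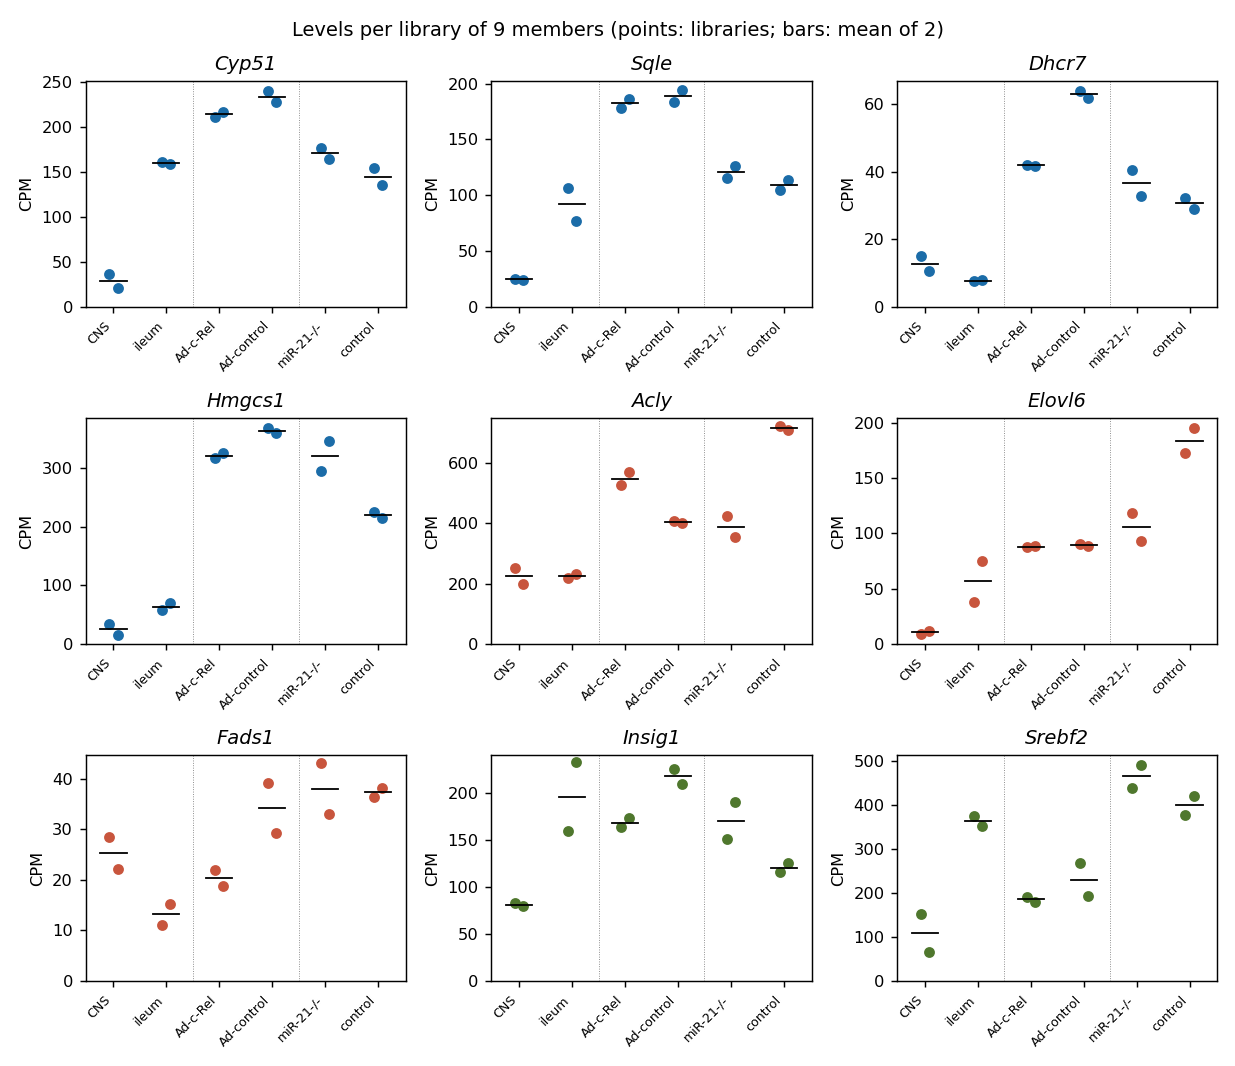
Level (CPM, each vertical axis from 0) of 9 of the genes in the 6 groups, 1 point per library with a bar at the mean of 2. Cyp51, Sqle and Elovl6 are lowest in CNS, Dhcr7 with Ad-c-Rel (42.0 and 41.6 CPM) lies under Ad-control (64.0 and 61.9 CPM), and Acly is lower in miR-21-/- cells than in their controls but higher with Ad-c-Rel than with Ad-control.

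In TH17(23) cells without miR-21, no gene of the set passed the adjusted threshold in the main edgeR fit, and neither did any of the 13428 genes tested (0% higher and 0% lower, smallest adjusted p 0.0625). That fit has no replicate term, and same-numbered libraries of this pair deviated together (r = 0.563). With a replicate block, the 5 genes of smallest p all passed (edgeR adjusted p 0.000135 to 0.00126). So did many others in that fit, with 2287 of the 13428 genes higher and 2520 lower. The labels tie no numbers across groups, so the block was kept as an alternative, with its counts given at the end. With no adjustment, 3 of the 32 genes were higher in miR-21-/- cells at p under 0.05 and 2 lower, against 9.6% and 11.4% of all genes tested, so both counts were near the background. DESeq2 called 1 of the 32 higher, Hmgcs1, and 2 lower, Acly and Elovl6, against 2.76% and 3.87% of the 12119 genes for which it gave an adjusted p. The 5 genes of smallest p are described with their values.

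Acly had 423 and 354 CPM in miR-21-/- cells, against 723 and 711 CPM in control cells (log2 fold change −0.82, SE 0.145, unadjusted p = 0.0015, edgeR adjusted p = 0.125, DESeq2 adjusted p = 0.000606). Elovl6 had 118 and 93.3 CPM in miR-21-/- cells, against 172 and 195 CPM in control cells (−0.74, SE 0.146, edgeR adjusted p = 0.126, DESeq2 adjusted p = 0.0109). Each was lower in both knockout libraries than in both controls. Hmgcs1 had 295 and 347 CPM in miR-21-/- cells, against 226 and 215 CPM in control cells (0.62, SE 0.181, edgeR adjusted p = 0.164, DESeq2 adjusted p = 0.0448). Msmo1 had 107 and 110 CPM in miR-21-/- cells, against 77.5 and 79.2 CPM in control cells (0.54, SE 0.137, edgeR adjusted p = 0.144). Insig1 had 151 and 190 CPM in miR-21-/- cells, against 116 and 125 CPM in control cells (0.58, SE 0.203, edgeR adjusted p = 0.197). These 3 were above both controls in both knockout libraries. Over all genes tested, 23.7% had both knockout libraries above both controls, and 30.6% had both below. Without miR-21-/- replicate 1, all 5 passed in edgeR (adjusted p 0.0288 to 0.0412), in a fit that left 1 knockout library, assumed to vary like the controls, and called 666 genes higher and 661 lower over all genes.

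The sterol arm as a group stood slightly above its controls. Of its 18 genes, 14 had a log2 fold change above 0, with a median of 0.25, against −0.02 over all genes tested. In 12 of the 18 (66.7%) both knockout libraries lay above both control libraries, against 23.7% of all genes tested. Mvk, mevalonate kinase, was among the exceptions, at 12.8 and 10.8 CPM in miR-21-/- cells and 17.1 and 15.5 CPM in control cells (−0.41, SE 0.170, edgeR adjusted p = 0.249). Ebp, Hsd17b7 and Tm7sf2 were the other 3 below 0. The fatty acid arm had a median of −0.13, which was 0.03 without miR-21-/- replicate 1 and 0.14 without control replicate 2. Scd2, which held most of its counts, overlapped at 1661 and 1957 CPM in miR-21-/- cells and 1546 and 1982 CPM in control cells. Fasn also overlapped, at 340 and 292 CPM in miR-21-/- cells and 296 and 225 CPM in control cells. Srebf2 had 439 and 492 CPM in miR-21-/- cells, against 378 and 422 CPM in control cells (0.29, SE 0.185), and Srebf1 overlapped.

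The mitotic list had all 12 genes above 0 on the log2 scale in this pair (median 0.45), 7 of them at an unadjusted p under 0.05. Its sums overlapped between the groups, at 1933 and 2806 CPM in miR-21-/- cells and 1442 and 2066 CPM in control cells. Its part in the sterol values was not tested. In the lists of sterol export, SREBP processing, fatty acid oxidation and other lipid synthesis, none of 53 genes passed in edgeR. Without adjustment 6 of them were higher and 6 lower at p under 0.05, and DESeq2 called 3 higher and 1 lower.

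The 2 culture comparisons share no library, so their values can be set side by side. Of the 31 genes tested in both, 18 were below 0 with Ad-c-Rel and above 0 in miR-21-/- cells (58.1%), against 28.4% of the 11614 genes tested in both. In all, 23 of the 31 had opposite signs (74.2%), against 56.3% of all those genes. Genes of 1 pathway are not independent, so these shares are descriptions. Some signs rest on values near 0, such as Acat2 (−0.01), Sqle (0.01) and Stard4 (−0.01) with Ad-c-Rel, each of which changed sign in another setting. Every gene of the mitotic list was likewise below 0 with Ad-c-Rel and above 0 in miR-21-/- cells, and its part in these shares was not tested. Acly was the clearest single case, at 0.50 with Ad-c-Rel and −0.82 in miR-21-/- cells. Insig1 was at −0.31 with Ad-c-Rel and 0.58 in miR-21-/- cells, and Dhcr7 was at −0.53 and 0.32 in the same order. Elovl6 was at 0.03 with Ad-c-Rel and −0.74 in miR-21-/- cells, and the difference between the 2 comparisons was not tested.

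**Figure D5:**
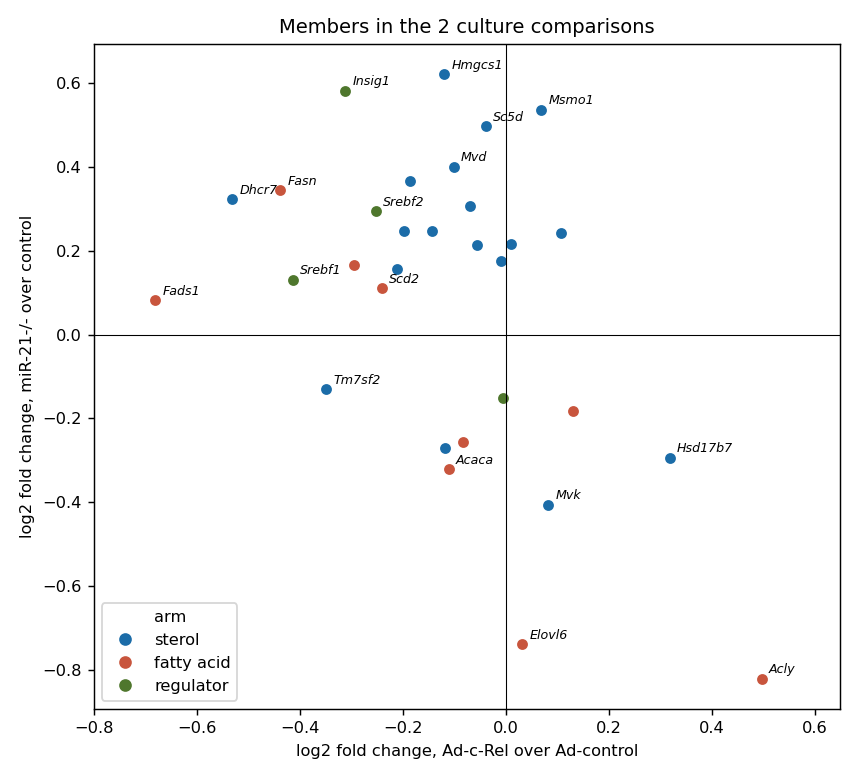
Log2 fold change of 31 genes with Ad-c-Rel over Ad-control (horizontal) and in miR-21-/- over control cells (vertical), coloured by arm. The upper left part of the plot holds 18 genes, and Acly stands alone at the lower right (0.50 and −0.82).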

How the data were processed

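The authors deposited 12 tables of raw counts per gene symbol, 1 per RNA library. Listed in the submitters' processing notes, with no role or order, are mm10, TopHat2 2.1.0, HTSeq 0.11.0, Trim Galore 0.4.4, CASAVA 1.4, Bowtie2, SAMtools, HOMER and DESeq2. Neither annotation nor strand setting is given in the sources used here. Summary lines that name no gene held 14.7% to 26.1% of each table and stayed out of totals and tests. CPM is a gene's count over the library's gene counts, scaled to 1e+06, and medians and fold changes are on the log2 scale. The fits used R 4.3.3 and edgeR 4.0.16, 1 fit for the 4 libraries of each pair (TMM after filterByExpr, then the two-sided quasi-likelihood F test, with Benjamini-Hochberg adjustment over all genes tested and a threshold of 0.05). Dividing the size of a log2 fold change by the root of its F statistic gave the SE. The fit was tested on simulated data, with independent libraries and changes larger than those called in the set for Ad-c-Rel. That run does not bear on such small changes, or on libraries that deviate together. DESeq2 1.42.0, other scalings, no low-count filter, a replicate block and leaving out each library were alternatives. The low-count filter kept 30, 31 and 32 of the 32 genes in the CNS, Ad-c-Rel and miR-21 pairs, and no set test was run. Where a library had 0 counts, the limit given is 3 counts of its total, for counting error only.

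The 32 genes, the other lists and the tests were chosen with earlier results of these data known. The text names every gene of the set, gives full statistics for those past the threshold (or the 5 of smallest p), and names up to 3 called genes of each other list. Soat1, Slc25a20, Hsd17b12 and Dgat2 were added after their values were seen. Gene spans are those of RefSeq on GRCm38.p6, the assembly of mm10.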

Additional observations from a re-analysis of the deposited data

How the results depend on the processing

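In CNS against ileum, the genes called higher and lower numbered 1210 and 1330 by DESeq2, and 1113 and 1300 with no low-count filter. Of the 12038 genes that passed the filter, 534 were higher and 775 lower with a replicate block. Total counts alone gave 643 and 512, and scaling to the T cell list gave 920 and 384. Leaving out 1 library gave 319 (without CNS replicate 2) to 1285 (without ileum replicate 1) higher. Of the 32 genes, 12 were lower by DESeq2, 14 with no low-count filter, 8 with a replicate block, 5 by total counts alone and 3 when scaled to the T cell list. Leaving out 1 library gave 3 lower (without ileum replicate 2) to 8 lower (without ileum replicate 1), and 0 to 1 higher. That 1 was Acaca, at 0 counts in ileum replicate 2, without ileum replicate 1.

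For Ad-c-Rel, DESeq2 called 636 higher and 431 lower. Of 11711 genes, the replicate block called 1488 higher and 1314 lower, and total counts alone 669 and 1027. Leaving out 1 library gave 537 to 784 higher and 389 to 597 lower, with 541 and 394 without Ad-control replicate 1. Of the 32 genes, DESeq2 called 1 higher (Acly) and also called Dhcr7, Fads1, Srebf1 and Insig1 lower. Total counts alone called 1 higher and 8 lower, and no low-count filter 7 lower. The replicate block called Acly and Hsd17b7 higher and 10 genes lower. Leaving out 1 library gave 1 to 2 higher and 1 (without Ad-control replicate 1) to 7 (without Ad-control replicate 2) lower.

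For miR-21-/-, DESeq2 called 334 higher and 469 lower, no low-count filter 9 and 31, and the replicate block 2287 and 2520. Leaving out 1 library gave 1 to 666 higher and 1 to 661 lower, both highest without miR-21-/- replicate 1. Of the 32 genes, DESeq2 called 1 higher and 2 lower, and the replicate block 9 higher and 5 lower. Leaving out 1 library gave 0 to 3 higher and 0 to 2 lower.

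No gene of the set called in the results above changed direction in these settings. The causes of these shifts were not tested. Same-numbered libraries deviated together at r = 0.108 (CNS pair), 0.0435 (Ad-c-Rel pair) and 0.563 (miR-21 pair). The labels tie no numbers across groups and each comparison has 2 of them, so the samples were taken to share only a number. Me1, Fads2, Lss, Tm7sf2, Scd1 and Acaca were at 0 counts in replicate 2 of CNS, ileum or both, though that replicate had the larger total count in each tissue.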
